A study of Mus musculus with 8 samples.

Results

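The genes described here are 9 genes of the B lymphocyte lineage, followed on 8 expression arrays of mouse spleen and lymph node. They are Cd79a, Cd79b, Cd22, Blk, Ms4a1, Cr2, Fcer2a, Pax5 and Ebf1. Every probe set whose only gene symbol in the platform annotation was one of these names was taken, which gave 17 of the 45037 probe sets that were not controls. The genes were 9 of the 18193 with a symbol of their own. The study concerned cells outside the thymus that express Aire, the autoimmune regulator, and compared mice with and without the gene. There were 2 arrays each, named A and B, of Aire-knockout spleen, Aire-wild-type spleen, Aire-knockout lymph node and Aire-wild-type lymph node. The labels give organ, Aire genotype and letter. They give no other allele, strain, treatment, age, sex, cell type or sorting step. What the letters mark, and whether a group holds RNA of more than 1 animal, is not stated. Spleen and lymph node below mean samples with those labels, which need not be whole organ. Sex-linked signals, given below, differed between the A and B arrays of each group, so these are not repeats of the same RNA. The p-values below reflect the spread between the arrays of a group, and its technical part is not known.

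B lymphocytes are normally a major population of spleen and lymph node follicles. Early in their development the transcription factors Ebf1 and Pax5 switch on and then hold the B cell programme, including the genes of the antigen receptor complex. In that complex a membrane immunoglobulin binds antigen, and the Cd79a and Cd79b chains carry the signal inward through tyrosine motifs that Src-family kinases such as Blk phosphorylate. Cd22 is a lectin that dampens the signal. Cr2, the complement receptor that joins the receptor complex when antigen is coated with complement fragments, amplifies it. Ms4a1 encodes CD20, a surface protein of mature B cells, and Fcer2a encodes CD23, the low-affinity receptor for IgE, which is typical of follicular B cells. Several of these genes are not confined to B cells: Ebf1 is also expressed in stromal and fat-lineage cells, and Cr2 and Fcer2a in follicular dendritic cells.

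Values are signals, 1 per probe set, on a linear scale after each array was brought to the same median. Signals at or under 9.58, the 20th percentile of all signals, were treated as background and are called the floor. Differences are on the log2 scale, with their SE, from a limma model of all 8 arrays in which 11557 genes were tested, those with a signal over 59.0, the median of all signals, on at least 2 arrays. Each gene was represented by its probe set with the highest mean. A call needed a p under 0.05 after Benjamini-Hochberg adjustment over all genes tested. All 9 B cell genes were tested, through 1 probe set each. Of the 17 probe sets 14 passed the same filter on their own, and the others were 1 each of Pax5, Ebf1 and Cd22. In these bulk samples fewer cells of a type and less RNA per cell cannot be told apart.

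Array medians before this step ranged from 53.8 to 65.3. Aire, the targeted gene, had signals from 791 to 2376 on the knockout arrays and from 3052 to 5204 on the wild-type arrays. Its averaged knockout minus wild-type difference was -1.76 ± 0.33 (limma adjusted p = 0.237). Whether its probe set lies in the deleted part was not determined. Xist, from the inactive X chromosome, and the Y-linked gene Eif2s3y were both strong on the knockout A and wild-type B arrays. Xist was at 14.6 and 23.1 on the knockout B arrays, and Eif2s3y at 21.2 and 3.80 on the wild-type A arrays. Low Xist was seen only on knockout arrays and low Eif2s3y only on wild-type arrays, so the sex-linked signals were not balanced between the genotypes. They also differed between the letters in each genotype and were alike in the spleen and lymph node arrays of the same genotype and letter. If those arrays share animals, the organs are not independent, and the p of an effect averaged over them may be too small. Of 16 further gene lists, 8 had their highest summed signal on knockout spleen A.

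No B cell gene passed the test in any comparison. Signals of the 9 genes were low, with 557 the highest on any array. The probe set of Pax5 was over 59.0, the median of all signals, on 2 arrays and that of Cd22 on 3. Those of Cd79a and Ms4a1 were over it on 4, Cr2 and Fcer2a on 6, and Cd79b, Ebf1 and Blk on 7. The reason for these levels was not tested. Knockout spleen A had the highest signal of all 8 arrays for Cd79a, Cd79b, Ms4a1, Ebf1 and Cd22, 5 of the 9 genes, where it was highest for 18.8% of all genes tested. It was highest in 10 of the 17 probe sets, several of which were of the same gene. The share over all probe sets was not computed. On average over the 9 genes, each set against its own mean, knockout spleen A lay 1.51 log2 units above the mean and knockout lymph node A 0.32 above. Knockout spleen B lay at -0.38 and knockout lymph node B at -0.53, and the 4 wild-type arrays lay between -0.71 and 0.0025. The highest of the 8 arrays and 1 of the 3 lowest were thus both knockout spleen arrays. The plot of each gene against its own mean shows the array by array pattern.

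**Figure D1:**
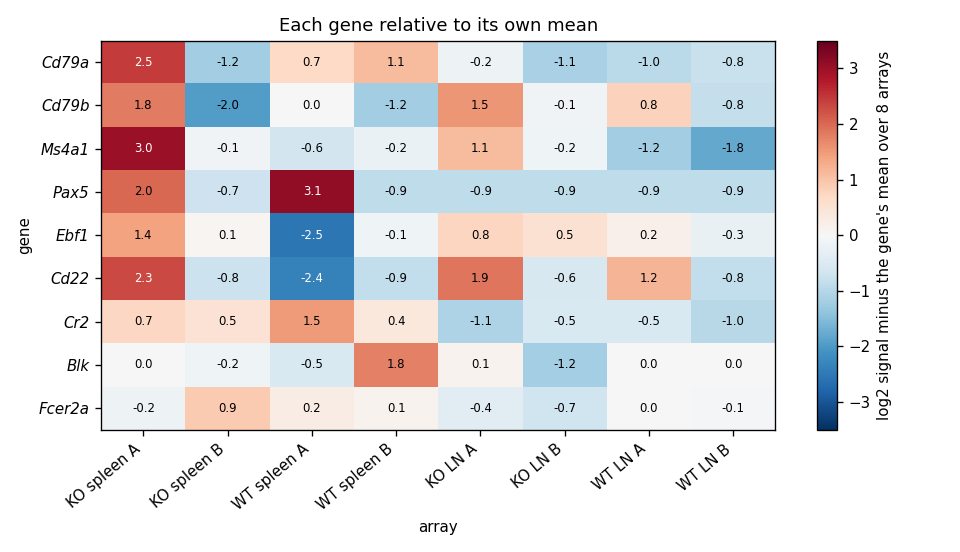
Log2 signal of each of the 9 B cell genes minus that gene's mean over the 8 arrays, by array (KO, Aire-knockout; WT, Aire-wild-type; LN, lymph node; A and B, the letters of the labels). Red cells gather in the column of KO spleen A for Cd79a, Cd79b, Ms4a1, Pax5, Ebf1 and Cd22, Pax5 is redder still on WT spleen A, and Cr2 is red in all 4 spleen columns and blue in all 4 lymph node columns.

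The antigen receptor chains varied widely between the arrays of one group. Cd79a (1418830_at) had signals of 435 and 33.8 on the knockout spleen arrays, against 128 and 171 on the wild-type spleen arrays. Its lymph node signals were 70.5 and 36.0 on knockout arrays, against 41.0 and 46.6 on wild-type arrays. The 2 knockout spleen values were the highest and the lowest of all 8, so the groups overlapped in both organs. The genotypes differed by -0.29 ± 1.07 in spleen (knockout minus wild-type, limma adjusted p = 0.964) and by 0.21 ± 1.07 in lymph node (limma adjusted p = 1).

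Cd79b (1417640_at), the partner chain of Cd79a, had 557 and 40.7 on knockout spleen arrays, against 157 and 67.6 on wild-type spleen arrays. In knockout lymph node it had 457 and 143, against 273 and 88.3 in wild-type lymph node. In each group the A array was above the B array, and the genotypes overlapped in both organs. The difference was 0.55 ± 1.26 in spleen (limma adjusted p = 0.932) and 0.72 ± 1.26 in lymph node (limma adjusted p = 1). Without knockout spleen A, the spleen difference of Cd79b was -1.34 and that of Cd79a -2.13.

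Promoter sequences of Cd79a and Cd22, which were highest on knockout spleen A, are shown beside that of Cr2, which was not. Each is the 250 bases before the gene's start from RefSeq, build GRCm38.p6, 5′ to 3′ on the gene's strand, with matches to the searched motifs in capitals. A match on the other strand appears as its reverse complement, CACCTG for CAGGTG and ACTTCC for GGAAGT. Of the 9 genes 6 had an entry in that table, with 9 windows between them.
Cd79a, chr7:24897247-24897496, plus strand: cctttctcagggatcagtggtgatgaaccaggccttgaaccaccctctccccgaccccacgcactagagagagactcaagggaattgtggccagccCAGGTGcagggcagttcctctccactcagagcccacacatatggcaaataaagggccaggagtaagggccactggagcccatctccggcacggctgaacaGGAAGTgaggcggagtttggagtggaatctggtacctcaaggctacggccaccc
Cd22, chr7:30879029-30879278, minus strand: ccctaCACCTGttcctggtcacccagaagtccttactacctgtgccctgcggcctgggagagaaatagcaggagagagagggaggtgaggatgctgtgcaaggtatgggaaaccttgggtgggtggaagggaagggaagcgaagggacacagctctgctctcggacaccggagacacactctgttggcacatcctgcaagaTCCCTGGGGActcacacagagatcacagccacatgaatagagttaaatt
Cr2, chr1:195176720-195176969, minus strand: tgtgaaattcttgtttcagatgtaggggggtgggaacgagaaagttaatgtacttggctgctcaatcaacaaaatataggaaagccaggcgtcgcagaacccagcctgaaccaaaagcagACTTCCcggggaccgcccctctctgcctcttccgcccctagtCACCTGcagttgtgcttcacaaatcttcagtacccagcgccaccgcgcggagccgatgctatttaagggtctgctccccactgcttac
Both strands were searched for the core recognised by EBF proteins, TCCC and GGGA separated by any pair of bases, for the E-box forms CAGGTG and CAGCTG, for the octamer ATGCAAAT and for GGAAGT, a core of ETS factor sites. An exact match to the EBF core was in the Cd22 window, starting 49 bases before the start, and in no other window of these genes. Of all 32851 windows 0.779% held it. Sites that depart from the searched letters were not looked for, so a window without a match may still hold a site. CAGGTG was in windows of Cd79a, Cd22, Cr2 and Fcer2a, and in 17.2% of all windows. GGAAGT was in windows of Cd79a, Cr2, Ebf1 and Fcer2a, and in 19.7% of all. CAGCTG was in a window of Fcer2a alone among these genes, against 13.0% of all, and ATGCAAAT was in none of theirs, against 1.60% of all. These matches describe letters in the windows.

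Cd22 (1419768_at), the inhibitory lectin, had 248 and 29.3 on knockout spleen arrays, against 5.71 and 27.4 on wild-type spleen arrays. In lymph node it had 183 and 33.8 on knockout arrays, against 114 and 27.6 on wild-type arrays. The spleen groups did not overlap, though knockout B and wild-type B were nearly level and wild-type A lay at the floor. The spleen difference was 2.40 ± 1.28 (limma adjusted p = 0.678) and was 0.86 without knockout spleen A. In lymph node it was 0.49 ± 1.28 (limma adjusted p = 1). Its other probe set (1419769_at) did not pass the filter, with signals from 2.26 to 43.4 and 4 of 8 arrays at the floor, and was highest on knockout lymph node A.

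Blk (1422775_at), the B cell Src-family kinase, was highest on wild-type spleen B, while both receptor chains were highest on knockout spleen A. Over all arrays its correlation was 0.41 with Cd79a and -0.19 with Cd79b. Without knockout spleen A these correlations were 0.62 and -0.24. Blk had 98.9 and 88.1 on knockout spleen arrays, against 67.3 and 332 on wild-type spleen arrays. Its lymph node signals were 106 and 43.0 on knockout arrays, against 97.4 and 98.9 on wild-type arrays. The single high value was wild-type spleen B. The difference was -0.68 ± 0.76 in spleen and -0.54 ± 0.76 in lymph node (limma adjusted p = 0.849 and 1). Without wild-type spleen B the spleen difference was 0.47.

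Ms4a1 was the gene with the largest averaged difference between the genotypes, but its probe sets disagreed. The probe set that represented it (1450912_at) had 553 and 63.0 on knockout spleen arrays, against 44.1 and 58.0 on wild-type spleen arrays. In lymph node it had 146 and 61.4 on knockout arrays, against 29.7 and 19.9 on wild-type arrays. All 4 knockout values were above both wild-type values of the same organ, by a small margin for knockout spleen B. The difference was 1.88 ± 0.96 in spleen and 1.96 ± 0.96 in lymph node. Averaged over the organs it was 1.92 ± 0.68, a 3.80-fold higher level with a 95% interval of 0.31 to 3.54 log2 units (limma unadjusted p = 0.0259, adjusted p = 0.550).

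The other Ms4a1 probe set (1423226_at) had 402 and 4.45 on knockout spleen arrays, against 121 and 73.6 on wild-type spleen arrays. It had 147 and 27.5 on knockout lymph node arrays, against 60.0 and 35.0 on wild-type lymph node arrays. Knockout A was again the highest array in each organ, while knockout B was the lowest. Its averaged difference was -0.07 ± 1.15 in the fit to all 26480 probe sets that passed the filter (limma adjusted p = 0.997). With a floor at the 40th percentile this probe set came to represent the gene, and the averaged difference was then 0.49. Without knockout spleen A the difference of the main probe set was 0.32 in spleen and 1.14 averaged.

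**Figure D2:**
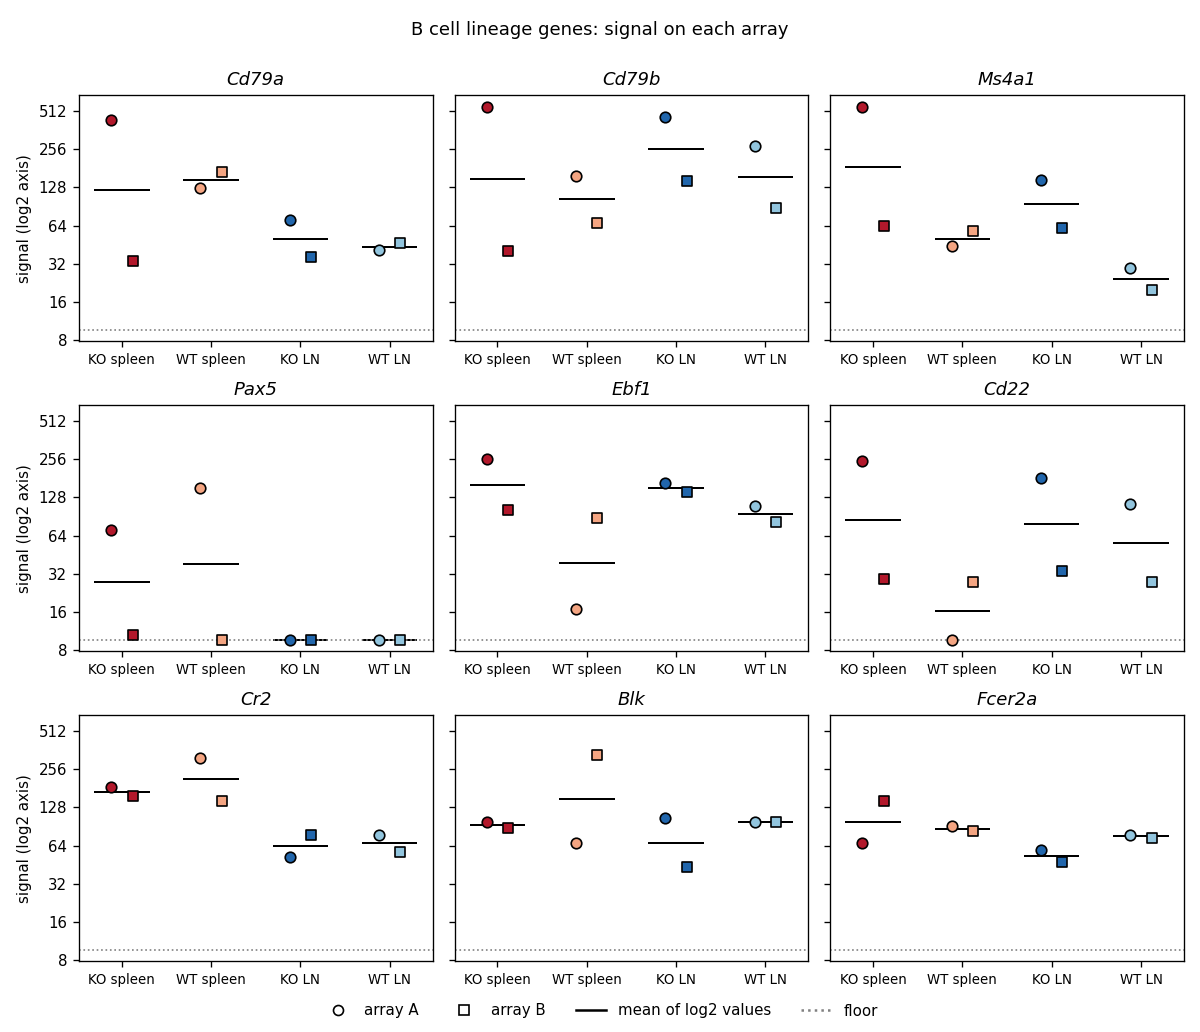
Signal of the 9 B cell genes on each array, on a log2 axis; circles are A arrays, squares B arrays, bars the mean of the log2 values, and the dotted line the floor of 9.58, to which lower signals were raised (KO, Aire-knockout; WT, Aire-wild-type; LN, lymph node). Circle and square lie far apart in KO spleen for Cd79a, Cd79b, Ms4a1, Pax5 and Cd22, and the 4 spleen values of Cr2 lie above its 4 lymph node values.

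Ebf1 (1416301_a_at), the early B lineage factor that is also made by stromal cells, had 257 and 102 on knockout spleen arrays, against 16.9 and 88.0 on wild-type spleen arrays. Its lymph node signals were 165 and 141 on knockout arrays, against 110 and 81.9 on wild-type arrays. The genotypes did not overlap in either organ. The difference was 2.07 ± 0.79 in spleen, a 4.19-fold higher level (limma unadjusted p = 0.0352, adjusted p = 0.568), and 0.69 ± 0.79 in lymph node. Averaged it was 1.38 ± 0.56 (limma unadjusted p = 0.0439, adjusted p = 0.611). The spleen difference was 0.88 without wild-type spleen A, the low array, and 3.26 without wild-type spleen B.

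Of the 4 other Ebf1 probe sets, 3 were tested. Their averaged differences were 1.01 ± 0.59 (1416302_at), 1.17 ± 0.58 (1439789_at) and 1.79 ± 0.32 (1448293_at). The untested one (1457441_at) had signals from 2.28 to 30.1, highest on knockout lymph node A, with 4 of 8 arrays at the floor. The probe set 1448293_at had the smallest p of any probe set of these genes in this comparison (limma unadjusted p = 0.000845, adjusted p = 0.294). It had 77.0 and 42.4 on knockout spleen arrays, against 18.4 and 28.2 on wild-type spleen arrays, and 52.2 and 62.2 on knockout lymph node arrays, against 8.95 and 15.1 on wild-type lymph node arrays. All 4 of its knockout signals were above all 4 wild-type signals, but the share of all probe sets that separate in this way was not computed. Its signals were low, over 59.0 on 2 arrays and at the floor on 1. The summed signal of 7 stromal genes was 305 and 217 on knockout spleen arrays, against 215 and 425 on wild-type spleen arrays, and 326 and 408 on knockout lymph node arrays, against 316 and 202 on wild-type lymph node arrays. Its part in the Ebf1 values was not tested.

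Pax5 (1421765_at), the factor that commits cells to the B lineage, was near background on most arrays. It had 71.2 and 10.6 on knockout spleen arrays, against 152 and 7.25 on wild-type spleen arrays. It was under the floor on all 4 lymph node arrays, with 7.73 and 7.03 on knockout arrays and 8.33 and 9.02 on wild-type arrays. Only the 2 spleen A arrays stood clear of the floor, and it passed the filter through them. Its other probe set (1454401_at) reached 42.0 at most, on knockout spleen A, with 4 of 8 arrays at the floor. The spleen difference was -0.48 ± 1.33 (limma adjusted p = 0.947), and a lymph node difference could not be measured with both groups at the floor.

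Cr2 (1425289_a_at) had 184 and 158 on knockout spleen arrays, against 312 and 145 on wild-type spleen arrays. In lymph node it had 52.3 and 77.4 on knockout arrays, against 77.6 and 57.2 on wild-type arrays. The genotypes overlapped in both organs. The difference was -0.32 ± 0.45 in spleen, with a 95% interval of -1.40 to 0.76, and -0.07 ± 0.45 in lymph node, with an interval of -1.14 to 1.01.

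Fcer2a (1422122_at) had 67.3 and 145 on knockout spleen arrays, against 90.9 and 83.1 on wild-type spleen arrays. Its lymph node signals were 58.8 and 47.2 on knockout arrays, against 77.7 and 73.8 on wild-type arrays. The spleen groups overlapped, and in lymph node both knockout values were below both wild-type values. The difference was 0.19 ± 0.42 in spleen, with a 95% interval of -0.81 to 1.18, and -0.52 ± 0.42 in lymph node, with an interval of -1.52 to 0.47. Its other probe set (1451713_a_at) ranged from 4.36 to 98.1 with 2 arrays at the floor, and had differences of 0.47 ± 1.26 in spleen and -1.23 ± 1.26 in lymph node.

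Over the 9 genes, 0 were called between knockout and wild-type in spleen, in lymph node or averaged, where 0% of the 11557 genes were called in each. In the fit to all probe sets 0 of the 14 were called, where 0.00755% were called in spleen and 0.0113% in lymph node and averaged. At an unadjusted limma p under 0.05, 1 gene was higher in knockout spleen (Ebf1), where 3.86% of all genes were, and 0 were lower, where 4.56% were, or 8.42% in either direction. In lymph node 0 were higher, where 1.74% of all genes were, and 0 were lower, where 1.64% were, or 3.38% in either direction. Averaged, 2 were higher (Ms4a1 and Ebf1), where 3.65% were, and 0 were lower, where 4.34% were, or 8% in either direction. With a trended robust prior in limma 0 of the 9 were called in any comparison.

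Groups did not overlap, with knockout higher, for 3 genes in spleen (Ms4a1, Ebf1 and Cd22), where 13.3% of all genes did so. In lymph node this held for 2 (Ms4a1 and Ebf1), where 14.6% did so, and both held it in both organs, where 3.06% did so. With knockout lower, 0 genes did so in spleen, where 23.9% did, and 1 in lymph node (Fcer2a), where 16.2% did, and 0 in both, where 5.68% did. Of the 9 genes 5 had a difference above 0 in spleen, 5 in lymph node and 4 averaged, where 42.6%, 46.8% and 43.3% of all genes did. The median difference of the 9 genes was 0.19 in spleen, 0.21 in lymph node and -0.04 averaged, beside -0.09, -0.03 and -0.06 for all genes tested. The spleen median was -0.43 without knockout spleen A and 1.56 without knockout spleen B.

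The knockout effect in spleen minus that in lymph node was tested directly. It ranged from -0.49 for Cd79a to 1.91 for Cd22, and 0 of 9 genes were called, where 0% of all genes were; 0 had an unadjusted limma p under 0.05, where 3.42% did, 1.52% with the spleen effect higher and 1.89% with it lower. It was above 0 for 3 of the 9, where it was for 46.2% of all genes. For Ebf1 it was 1.38 ± 1.12 and for Ms4a1 -0.08 ± 1.36.

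**Figure D3:**
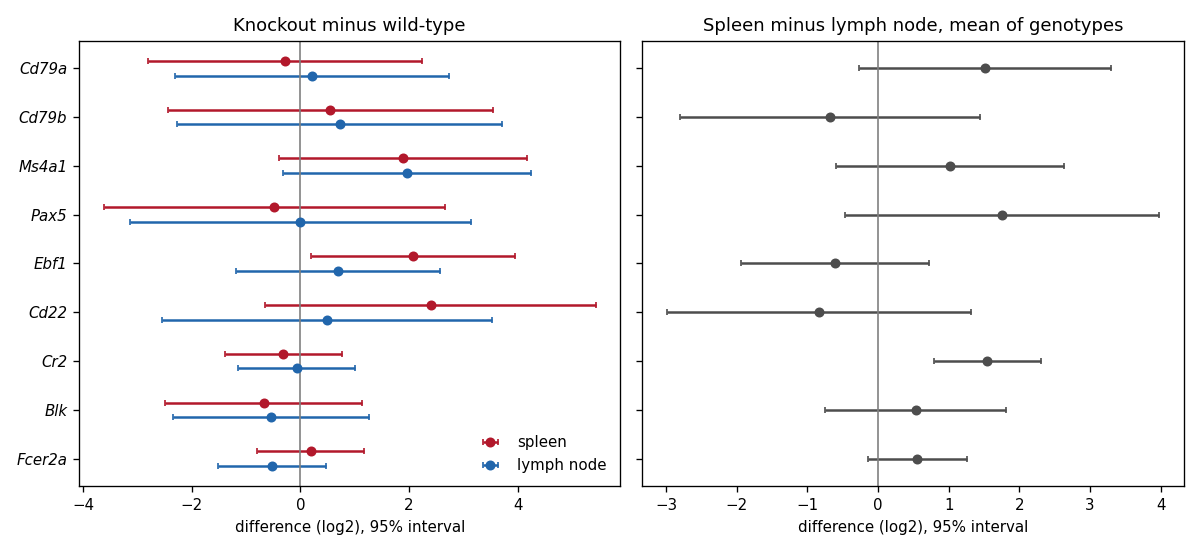
Differences in log2 signal of the 9 B cell genes with 95% intervals from the limma model; left, knockout minus wild-type in spleen (red) and lymph node (blue); right, spleen minus lymph node averaged over the genotypes. Intervals on the left include 0 except that of Ebf1 in spleen, and on the right except that of Cr2.

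Between the organs the genes did not move as a group. Cr2 was higher in spleen by 1.55 ± 0.32, 2.93-fold, with a 95% interval of 0.79 to 2.31, and all 4 of its spleen signals were above all 4 lymph node signals. It was the only one of the 9 with groups that did not overlap, where 3.82% of all genes did so in that direction and 1.9% in the other. It had a limma unadjusted p = 0.00196 and did not pass, with adjusted p = 0.220, which ran from 0.125 to 0.481 over the alternatives tried. Its knockout arrays alone had 184 and 158 in spleen against 52.3 and 77.4 in lymph node. Its wild-type arrays had 312 and 145 in spleen against 77.6 and 57.2 in lymph node. The summed signal of 8 follicular dendritic cell genes lay between 17234 and 23233 in spleen and between 15299 and 23338 in lymph node. This sum was set mainly by its strongest genes, such as Clu, with signals from 3043 to 9094. It does not show the weaker ones, such as Cxcl13, with signals from 31.6 to 964. Of 7 tested genes of this list, 2 were lower in spleen at an unadjusted limma p under 0.05 and 0 higher, where 4.52% and 6.23% of all genes were. Those were Cxcl13 at -1.97 ± 0.75 and Fcgr2b at -1.18 ± 0.26 (limma adjusted p = 0.424 and 0.226). The part of these genes in the Cr2 difference was not tested.

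The differences of the receptor chains between the organs had opposite signs and did not pass the test. Cd79a was higher in spleen by 1.51 ± 0.75 (limma adjusted p = 0.534), and by 0.59 without knockout spleen A. Cd79b differed by -0.68 ± 0.89 (limma adjusted p = 0.847), by -1.62 without that array and by 0.26 without knockout spleen B. Pax5 was higher in spleen by 1.76 ± 0.94 (limma adjusted p = 0.555) as fitted, with every lymph node array at the floor and only the spleen A arrays clear of it. Ms4a1 differed by 1.02 ± 0.68, Blk by 0.54 ± 0.54 and Fcer2a by 0.55 ± 0.30, while Ebf1 differed by -0.61 ± 0.56 and Cd22 by -0.84 ± 0.91. Their limma adjusted p ranged from 0.555 to 0.801.

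In all, 0 of the 9 genes were called between the organs, where 0% of all genes were. At an unadjusted limma p under 0.05, 1 was higher in spleen, where 6.23% of all genes were, and 0 were lower, where 4.52% were, or 10.7% in either direction. The difference was above 0 for 6 of the 9, where it was for 55.7% of all genes, and its median was 0.55, beside 0.06 for all genes.

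The 9 genes did not vary as 1 unit over the arrays. Of the 36 pairs of genes 24 had a correlation above 0 over the 8 arrays, with a median r of 0.18, and 21 without knockout spleen A, with a median of 0.05. The arrays share their source in ways the labels do not give, so these are descriptions. The highest were Ebf1 with Cd22 (0.83), Pax5 with Cr2 (0.79) and Cd79b with Cd22 (0.76). Cd79a and Cd79b, whose products pair in the receptor, had r = 0.43 over all arrays and 0.03 without knockout spleen A. The lowest was Cd79b with Fcer2a (-0.61).

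The 5 genes most like the mean of the B cell genes over the 8 arrays were Ruvbl2 (r = 0.98), Ssbp4 (0.98), Hyou1 (0.97), Abce1 (0.97) and Fkbp2 (0.97), out of 11548 other genes. Without knockout spleen A these values were 0.94, 0.93, 0.92, 0.93 and 0.86. Hyou1 and Fkbp2 encode proteins of the endoplasmic reticulum, Ruvbl2 an ATPase of chromatin remodelling complexes, and Abce1 a ribosome recycling factor. Fkbp2 had 1689 and 320 on knockout spleen arrays, against 499 and 495 on wild-type spleen arrays.

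Of 4 tested immunoglobulin genes 3 were highest on knockout spleen A, and of 7 tested plasma cell genes 6 were. That array was highest for 18.8% of all genes tested. Jchain counts in both lists. Ighm, the heavy chain of IgM, had 11874 and 1048 on knockout spleen arrays, against 7546 and 1086 on wild-type spleen arrays. In lymph node it had 1528 and 181 on knockout arrays, against 2044 and 424 on wild-type arrays. In all 4 groups the A array was above the B array. Jchain, which links secreted IgM and IgA, had 8185 and 377 on knockout spleen arrays against 3329 and 370 on wild-type spleen arrays, and 1212 and 182 on knockout lymph node arrays against 403 and 27.4 on wild-type lymph node arrays. Igha, the heavy chain of IgA, was highest on wild-type lymph node A, but its A array was also above its B array in all 4 groups. It had 1034 and 549 on knockout spleen arrays against 1243 and 713 on wild-type spleen arrays. In lymph node it had 1545 and 528 on knockout arrays against 1595 and 388 on wild-type arrays. Mzb1, a chaperone of antibody secretion, had 1482 and 197 on knockout spleen arrays against 193 and 85.9 on wild-type spleen arrays.

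Of 9 tested macrophage genes 5 were highest on knockout spleen A, as were both tested neutrophil genes and 4 of 9 tested T cell genes. This array was highest for 18.8% of all genes tested. The summed signal of 10 macrophage genes was 9353 and 1380 on knockout spleen arrays, against 1608 and 708 on wild-type spleen arrays. It was 6653 and 3525 on knockout lymph node arrays, against 2341 and 1102 on wild-type lymph node arrays. That of 7 neutrophil genes was 9681 and 215 on knockout spleen arrays against 476 and 442 on wild-type spleen arrays, and that of 12 T cell genes 4012 and 1592 on knockout spleen arrays against 2247 and 2246 on wild-type spleen arrays. The T cell genes did not run together: Cd3e, a chain of the T cell receptor complex, had 77.2 and 23.0 on knockout spleen arrays against 309 and 152 on wild-type spleen arrays. In spleen 1 T cell gene (Cd8a) was higher and 3 (Cd3d, Cd3e and Zap70) were lower in knockout at an unadjusted limma p under 0.05, where 3.86% and 4.56% of all genes were. The sum over the 9 B cell genes was 2472 and 671 on knockout spleen arrays against 974 and 979 on wild-type spleen arrays, and 1247 and 591 on knockout lymph node arrays against 829 and 503 on wild-type lymph node arrays. The sum over 11 dendritic cell genes stayed between 61790 and 80094 on all 8 arrays. It was set mainly by its strongest genes, such as Ccr7, with signals from 8241 to 14752, and does not show the weaker ones. Of 10 tested dendritic cell genes 2, Sirpa and Itgax, were highest on knockout spleen A. Sirpa had 2799 and 488 on knockout spleen arrays against 622 and 669 on wild-type spleen arrays. None of these lists had a measured gene at the floor on every array. The part of these cell types in the B cell gene values was not tested.

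**Figure D4:**
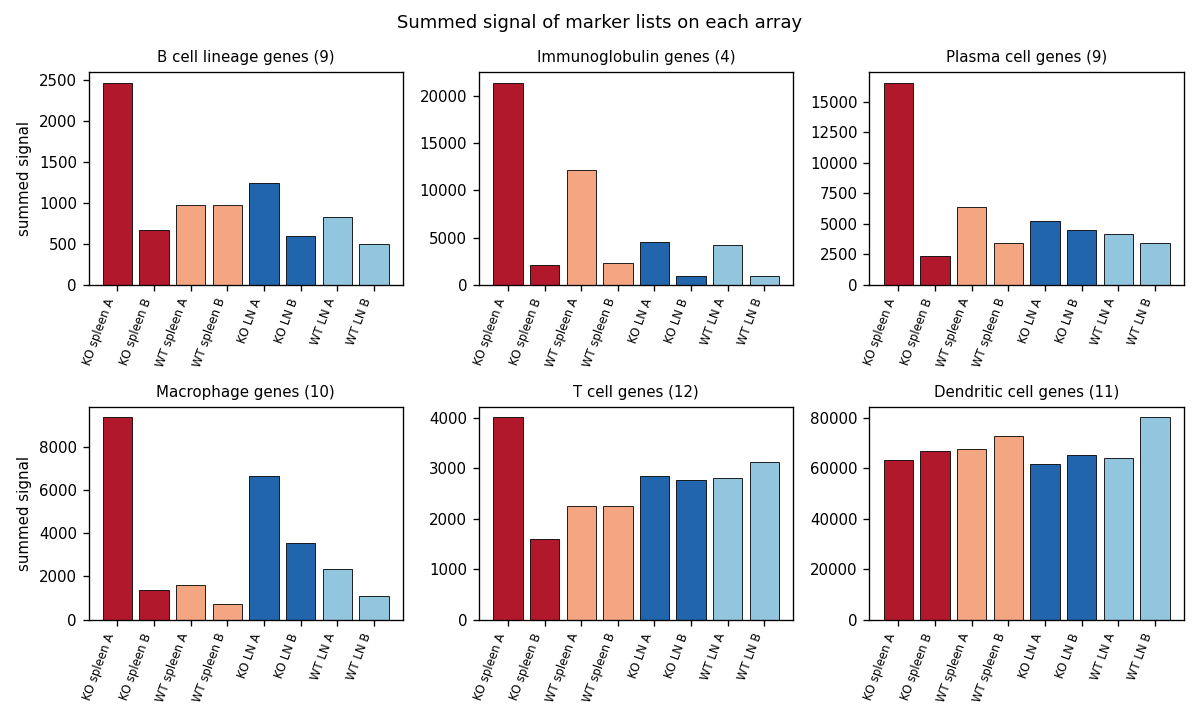
Summed signal on each array of the B cell genes and of 5 other marker lists, with the number of measured genes in brackets (KO, Aire-knockout; WT, Aire-wild-type; LN, lymph node; A and B, the letters of the labels); each panel has its own scale from 0. KO spleen A is highest for B cell, immunoglobulin, plasma cell, macrophage and T cell genes. Dendritic cell sums, set mainly by the strongest genes of that list, lie between 61790 and 80094.

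Other genes of B cell biology were read in the same fits, and 0 of any list were called in any comparison. Of 11 tested genes of antigen receptor signalling, 3 were higher in knockout at an unadjusted limma p under 0.05 in the averaged effect and 0 lower, where 3.65% and 4.34% of all genes were, with a median difference of 0.50. The shares of all genes are the same for the averaged counts of the other lists below. They were Pik3ap1, an adaptor to PI3-kinase, at 1.51 ± 0.44, Bank1, a B cell scaffold protein, at 1.43 ± 0.47, and Inpp5d, the inhibitory lipid phosphatase SHIP, at 0.59 ± 0.23 (limma adjusted p = 0.442, 0.509 and 0.593). Bank1 had 204 and 69.4 on knockout spleen arrays against 38.0 and 13.3 on wild-type spleen arrays, and 45.3 and 31.7 on knockout lymph node arrays against 26.7 and 28.5 on wild-type lymph node arrays. Of 13 tested surface and receptor genes 0 were higher and 2 lower at that p in the averaged effect, with a median of 0.15. Those were Cxcr5, the receptor that guides cells to follicles, at -1.17 ± 0.43, and Ltb, lymphotoxin beta, at -0.80 ± 0.33 (limma adjusted p = 0.564 and 0.617). In spleen alone 3 of these 13 were higher at that p, Cd37, Cd180 and Ly6d, and 1 was lower, Cxcr5, where 3.86% and 4.56% of all genes were. Their spleen differences were 2.29 ± 0.85, 2.32 ± 0.75, 1.43 ± 0.47 and -1.50 ± 0.61 (limma adjusted p = 0.556, 0.490, 0.496 and 0.581). In lymph node 0 of the 13 were higher or lower at that p, where 1.74% and 1.64% of all genes were. Of the 11 signalling genes 3 were higher in spleen (Btk, Bank1 and Pik3ap1) and 0 in lymph node, and 0 were lower in either. The shares of all genes are the same as for the 13. Cxcr5 had 150 and 243 on knockout spleen arrays against 351 and 834 on wild-type spleen arrays.

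Among 13 B cell transcription factors 0 were higher and 0 lower at that p in the averaged effect, in spleen or in lymph node. The shares of all genes in each are those given above. Their averaged median was -0.0052. Spib, which B cells share with plasmacytoid dendritic cells, had 3029 and 3222 on knockout spleen arrays against 4342 and 4210 on wild-type spleen arrays. Of 6 tested germinal centre genes 1 was higher in the averaged effect, where 3.65% of all genes were; this was Mybl1, at 1.21 ± 0.45. Of 3 tested early B cell genes 0 differed at that p, and Rag1, which recombines receptor genes, was at the floor on all 8 arrays. Of 7 tested plasma cell genes all 7 had averaged differences above 0, with a median of 1.13, where 43.3% of all genes did, and 1 had an unadjusted limma p under 0.05, Prdm1, at 1.13 ± 0.44. Of 7 tested follicular dendritic cell genes 1 was higher at that p in the averaged effect, where 3.65% of all genes were, Fcgr2b, the inhibitory IgG receptor that B cells and macrophages also carry, at 2.19 ± 0.26, and 2 were lower, where 4.34% were, Mfge8 at -0.65 ± 0.24 and Clu at -0.70 ± 0.28 (limma adjusted p = 0.130, 0.562 and 0.607).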

How the data were processed

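RNA of 8 mouse samples was measured on Affymetrix arrays. The deposited values are intensity values, 1 per probe set on a linear scale, made with MAS5 per the submitters' processing notes; no version and no detection call is given. The 2% trimmed mean of every array was 250, so the authors had scaled them. Of 45101 probe sets 64 controls were left out; of the rest 34945 had 1 symbol, 932 several and 9160 none. Array medians spanned 0.28 on the log2 scale, over the 0.2 tolerated, so arrays were shifted to a common median (factors 0.903 to 1.10). Signals were floored at the 20th percentile and taken to log2. R 4.3.3 and limma 3.58.1 fitted 4 group means to 11557 genes (4 residual and 2.96 prior degrees of freedom), and again to 26480 probe sets. The number of arrays limits the precision. The procedure was tested on simulated arrays drawn independently of each other. That test does not cover arrays that share animals, and it does not mean that small differences would be called.

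All 9 members and every one of their probe sets are named, with up to 3 genes of each other list by smallest p (averaged or between organs) and the 5 genes most correlated with the members' mean; Rag1, Igha, Cd3d, Cd3e, Cd8a, Zap70, Cd37, Cd180, Ly6d and Btk were chosen after their values were seen where that rule does not name them. Members and lists were chosen with earlier results of these data known; 22 list genes had no match. Same-letter arrays had correlations of their A minus B differences from 0.06 to 0.31 between groups, and no label ties the letters together, so arrays were not paired. Alternatives covered scaling, floor, filter, probe sets, prior, blocks, a Y-linked covariate and arrays left out.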

Additional observations from a re-analysis of the deposited data

Results flagged for a closer look

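One probe set of Ebf1 (1416302_at), not the one that represents the gene, differed in opposite directions in the organs: both knockout signals were above both wild-type signals in spleen and below both in lymph node. It had 251 and 48.7 on knockout spleen arrays against 3.85 and 28.8 on wild-type spleen arrays, and 44.9 and 30.8 on knockout lymph node arrays against 56.7 and 66.2 on wild-type lymph node arrays. The spleen effect minus the lymph node effect was 3.45 on the log2 scale and did not pass in the limma fit to all probe sets (adjusted p = 1). It was found by a search of the 17 probe sets of these genes, and the share of all probe sets with such a pattern was not computed. The probe set that represents Ebf1 had knockout above wild-type in both organs. Groups of 2 arrays are too small for a search for single outlying arrays.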

How the results depend on the processing

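None of the 9 B cell genes was called in limma under any of 22 alternatives, 8 of which left out 1 array each; the lowest adjusted p of any of them was 0.124, for Ms4a1 averaged over the organs without knockout spleen B. Not every gene was tested in every alternative. Pax5 and Cd22, over the median of all signals on 2 and 3 arrays, did not pass the filter of at least 4 arrays. Pax5 also did not pass with the mean of its probe sets. Pairing the organs tested only the organ difference and the spleen effect minus the lymph node effect. Of 903 values of these genes under the alternatives 59 changed sign, and the causes were not tested. Leaving out 1 array leaves a group of 1, which is then assumed to vary like the others. The median of the 9 genes ranged from -0.43 to 1.56 in spleen and from -0.48 to 1.35 for the spleen effect minus the lymph node effect when 1 array was left out. Genes with a change of sign then had these ranges, in log2 units. In the spleen difference the range was Cd79b -1.34 to 2.44, Cd79a -2.13 to 1.56, Pax5 -2.47 to 1.52, Fcer2a -0.37 to 0.74, Cr2 -0.87 to 0.23 and Blk -1.83 to 0.47. In the lymph node difference the range was Cd79a -0.28 to 0.69, Cd79b -0.12 to 1.56, Cd22 -0.73 to 1.71, Cr2 -0.35 to 0.22 and Blk -1.19 to 0.12. In the averaged difference the range was Cd79b -0.31 to 1.58, Fcer2a -0.45 to 0.11, Cd79a -0.96 to 0.88, Pax5 -1.24 to 0.76 and Cr2 -0.47 to 0.0836. In the spleen effect minus the lymph node effect the range was Cd79a -2.34 to 1.35, Cd79b -2.06 to 1.71, Ms4a1 -1.65 to 1.49, Pax5 -2.47 to 1.52, Cr2 -0.81 to 0.30 and Blk -1.29 to 1.01. Between the organs the range was Cd79b -1.62 to 0.26 and Blk -0.0403 to 1.11.

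Without both knockout A arrays, Cd79b was -1.34 in spleen, -0.12 in lymph node and -0.73 averaged. Cd79a was -0.28, Cd22 -0.73 and Cr2 0.22 in lymph node, while Fcer2a was 0.0298 averaged and the spleen effect minus the lymph node effect of Blk was 0.43. With Y-linked genes as a covariate, Pax5 was 0.44 in spleen and 0.62 averaged, Cr2 0.17 in lymph node and 0.0615 averaged, and Cd79a 0.10 averaged. Averaged Cd79a was 0.0352 with no median shift and 6e-04 with the floor added to every signal, where the spleen effect minus the lymph node effect of Ms4a1 was 0.12. Between the organs Ebf1 was 0.0472 with the mean of probe sets.

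The number of all genes called between the organs, 0 in the main setting, was 48 with the trended robust prior, 3 with a floor at the 40th percentile, and 1 each with quantile normalization, no median shift, no filter and the mean of probe sets. Averaged between the genotypes it was 6 with the trended robust prior, 2 with the higher floor, 3 when all probe sets were tested and 0 to 2 when 1 array was left out. In spleen it was 1 with the trended robust prior and 2 when all probe sets were tested, and in lymph node it was 3 when all probe sets were tested. With the letter as a replicate block, the medians of the 9 genes were 0.19 in spleen, 0.21 in lymph node and -0.04 averaged, and 0 genes were called; pairing the organs by genotype and letter also gave 0. Signals of these genes reached 557 at most, and values at the floor have no order, which limits Pax5 and Cd22.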
